A study of Mus musculus with 16 samples.

Results

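Transcript levels of VE-cadherin-positive, CD45-negative cells from Tie-2-Etv2 mice were compared between the yolk sac and the embryo proper of E11.5 embryos. The comparison rested on 4 of the 16 arrays of the series, 2 of yolk sac cells and 2 of embryo cells, chosen from the sample labels by tissue, sort gate and genotype. Tie-2-Etv2 animals carried an Etv2 transgene that a Tie-2 Cre transgene turned on, so that the transgene depended on the promoter of Tek, the gene of the endothelial receptor Tie-2. The titles of the 2 embryo arrays name only Tie-2, while their genotype label reads Tie-2-Etv2, and they were used as that group. Control animals of the same age gave yolk sac and embryo cells of the same gate, with 2 arrays each, and these 4 arrays are set beside the comparison. The remaining 8 arrays held VE-cadherin-positive, CD45-positive cells of both tissues and genotypes. They served to estimate the spread, and they also had a part in which probes were kept and which probe stood for a gene. Per the labels, all animals had a mixed strain background (B6/CBA and others), and the cells were sorted by flow cytometry with no treatment afterwards. No label ties the 2 samples of a group to separate embryos or sorts, so the p-values rest on a spread that may be purely technical.

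VE-cadherin, encoded by Cdh5, is the adhesion protein of endothelial junctions, and CD45, encoded by Ptprc, is a phosphatase on the surface of nearly all white blood cells. Etv2 is an ETS-family transcription factor that starts the earliest endothelial and blood programmes in the embryo and is normally switched off soon after. The yolk sac is the first site of blood formation, where endothelium lines vessels beneath a secretory visceral endoderm, and some of its endothelial cells give rise to blood progenitors.

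Levels are the log2 of an array's processed intensity minus the log2 of its 75th percentile, so that 0 is the 75th percentile of the array and negative values lie below it. All differences are yolk sac minus embryo on this log2 scale, with the SE of a limma fit over all 16 arrays, and adjusted p-values are limma's, two-sided, with Benjamini-Hochberg adjustment over 24588 genes and unnamed probes. A gene is said to be higher or lower only where the adjusted p was under 0.05. All embryo arrays lay on 1 slide and all yolk sac arrays on another, so tissue and slide cannot be told apart in the comparison itself. A shift of a whole slide that adds equally to both genotypes cancels where the tissue difference of Tie-2-Etv2 cells was tested against that of control cells. Between 50.6% and 59.9% of probes were well above background on the 16 arrays, 0 spots were saturated, and precision is limited by having 2 arrays a group. The correlation across genes (no independent replicates) was 0.985 between the 2 yolk sac arrays and 0.989 between the 2 embryo arrays.

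Etv2 itself was read by 2 probes, which are shown because every comparison here rests on the transgene. Both lie on the minus strand of mm9, the first at chr7:31418776-31418835 and the second at chr7:31419633-31419692, and the sequences are those of the array design. The third sequence belongs to Emcn, an endothelial surface sialomucin with one of the clearest losses below, at chr3:137086389-137086448 on the plus strand.
Etv2 probe 1: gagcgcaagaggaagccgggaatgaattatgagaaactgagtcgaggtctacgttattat
Etv2 probe 2: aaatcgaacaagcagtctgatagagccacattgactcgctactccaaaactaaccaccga
Emcn probe: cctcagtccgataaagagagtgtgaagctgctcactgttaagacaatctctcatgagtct

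On the first probe, Etv2 had log2 levels of 3.90 and 3.26 in Tie-2-Etv2 yolk sac cells and 2.58 and 2.13 in Tie-2-Etv2 embryo cells. In control cells the same probe read -2.60 and -2.96 in the yolk sac and -0.14 and -0.14 in the embryo, below both Tie-2-Etv2 groups. The Tie-2-Etv2 tissues did not overlap, but their difference of 1.22 ± 0.96 did not pass the test (adjusted p = 0.375). The second probe gave a difference of 1.17. Whether the probes read the transgene, the endogenous gene or both was not tested.

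Markers of the sorted cells and of other cell types were both detected. Of 8 tested endothelial markers, Cdh5 among them, all 8 were well above background on all 4 Tie-2-Etv2 arrays. Cdh5 had levels of 4.72 and 4.76 in yolk sac cells and 5.40 and 5.41 in embryo cells, a difference of -0.67 ± 0.30 that did not pass the test (adjusted p = 0.123). The yolk sac arrays were the lower ones and the groups did not overlap. This call depended on the scaling, with adjusted p = 0.0303 under quantile normalization and 0.0356 when arrays were scaled on the probes detected on all of them. Ptprc, the gene of the gated CD45 protein, had levels of -2.93 and -3.43 in yolk sac cells, both well above background, and -5.44 and -5.54 in embryo cells, neither of them well above background. It was at least 3.70-fold higher in the yolk sac (adjusted p = 0.000479), although with another background correction, normexp, its difference was 0.40 and did not pass (adjusted p = 0.248). In such bulk samples, fewer cells of a type and less RNA per cell cannot be told apart.

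In all, 7520 of 24588 genes (30.6%) passed the test, 4450 higher (18.1%) and 3070 lower (12.5%) in Tie-2-Etv2 yolk sac cells than in Tie-2-Etv2 embryo cells. The median difference over all genes was 0.12. Scaling on detected probes moved this median to -0.13 and the split to 2551 higher and 4326 lower, so that 37.1% of calls were higher in place of 59.2%. The groups did not overlap for 71.3% of all genes. Fewer genes passed without a single array: without yolk sac replicate 1 the counts were 1747 higher and 1746 lower, without embryo replicate 1 they were 2231 and 1781, and without embryo replicate 2 they were 2041 and 1980. The same contrast in control cells called 11.6% of genes, 1339 higher (5.45%) and 1501 lower (6.1%). Of the 4450 genes higher in Tie-2-Etv2 yolk sac cells, 541 were also higher in control yolk sac cells, 184 were lower there and 3725 did not pass there. Of the 3070 lower genes, 558 were also lower in control yolk sac cells, 103 were higher and 2409 did not pass.

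Genes of white blood cells were higher in the yolk sac almost throughout. Of 44 tested pan-leukocyte genes 39 were higher and 1 was lower in Tie-2-Etv2 yolk sac cells, with a median difference of 2.32, beside 18.1% higher, 12.5% lower and a median of 0.12 over all genes. In control cells 8 of the 44 were higher and 5 lower, with a median of -0.04, beside 5.45% higher, 6.1% lower and a median of -0.12 over all genes. Fewer genes passed in control cells, so each list count below is to be read beside the shares of its own genotype. The plot of list members by genotype shows these genes shifted to the right in Tie-2-Etv2 cells and spread around 0 in control cells.

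**Figure D1:**
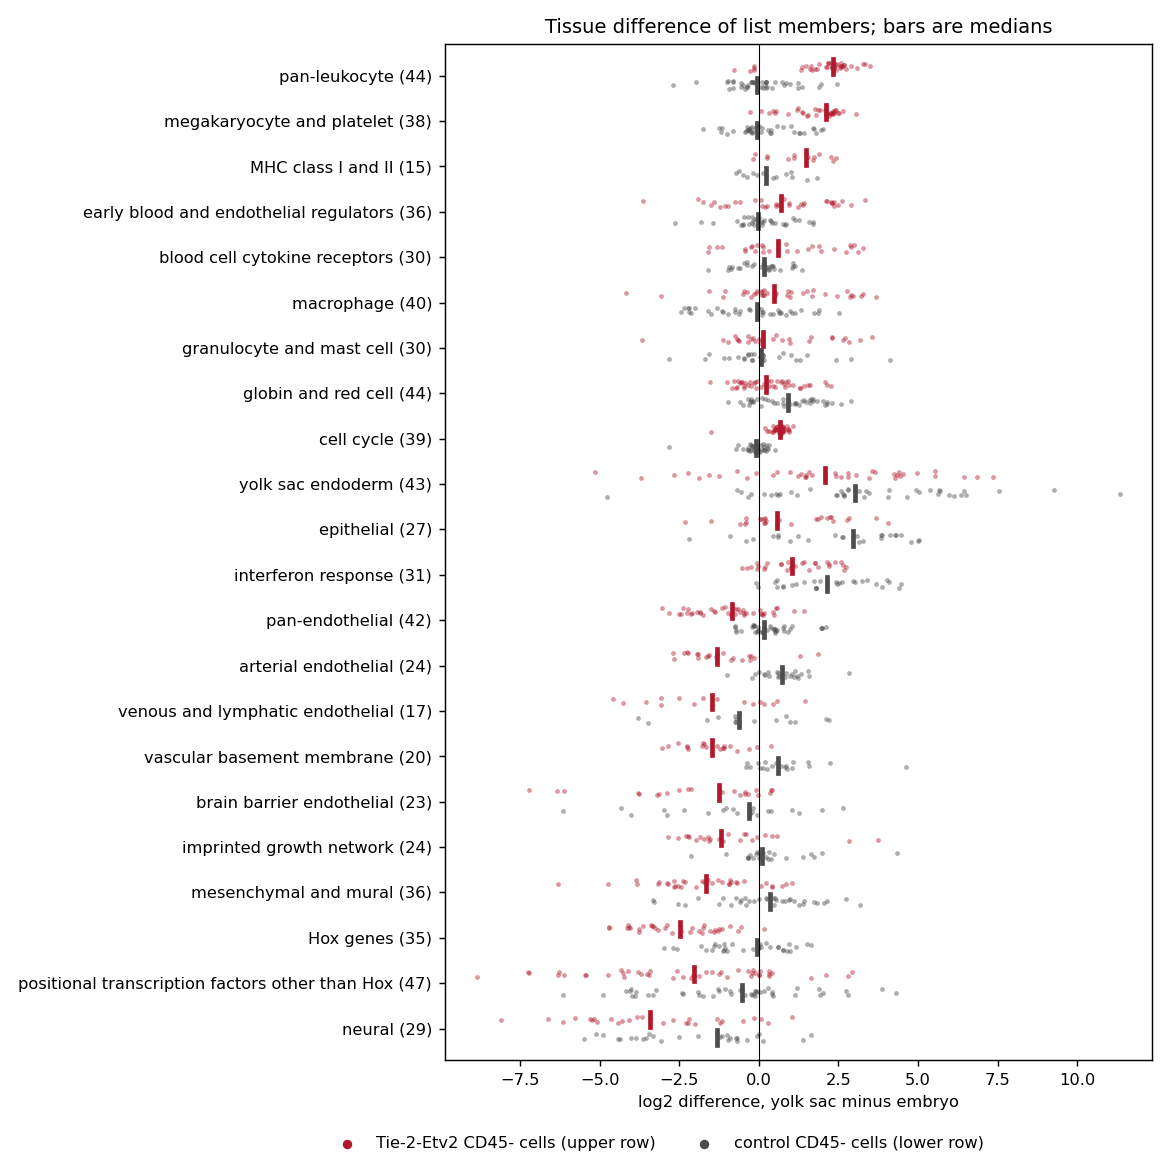
Each point is 1 tested gene of a list (number of genes in brackets), placed at its log2 difference, yolk sac minus embryo, with Tie-2-Etv2 CD45- cells in the upper row of each pair and control CD45- cells in the lower row, and bars at the medians. The pan-leukocyte median lies at 2.32 in Tie-2-Etv2 cells and at -0.04 in control cells, while the vascular basement membrane median lies at -1.49 and 0.62.

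Rac2, a small GTPase of the blood cell cytoskeleton, is read by a probe at chr15:78391452-78391511 (mm9). Its levels were 5.65 and 5.06 in Tie-2-Etv2 yolk sac cells and 2.88 and 2.65 in Tie-2-Etv2 embryo cells, against -3.44 and -4.24 in control yolk sac cells and -3.32 and -3.38 in control embryo cells. Both Tie-2-Etv2 groups thus lay far above both control groups, and the yolk sac arrays were the higher ones, with a difference of 2.59 ± 0.27 (adjusted p = 0.000175). Vav1, which activates Rac GTPases, had levels of 6.01 and 5.66 in Tie-2-Etv2 yolk sac cells and 3.43 and 3.41 in Tie-2-Etv2 embryo cells, a difference of 2.41 (adjusted p = 0.000128). Coro1a, an actin-binding protein of leukocytes, had 6.82 and 6.23 in yolk sac cells and 4.05 and 3.81 in embryo cells, a difference of 2.59 (adjusted p = 0.000101). In control cells the tissues lay close together for both genes, at -1.75 and -2.02 for Vav1 in the yolk sac against -1.93 and -1.17 in the embryo, and at -0.32 and -0.42 for Coro1a in the yolk sac against -0.22 and 0.22 in the embryo. Ptpn6, the phosphatase SHP-1 that restrains leukocyte receptors, differed by 2.73 ± 0.17 (adjusted p = 2.3e-05). Evi2a, a membrane protein of blood cells, differed by 3.50, Tyrobp, the DAP12 signalling adaptor of myeloid cells, by 3.25, and Laptm5, a lysosomal protein of blood cells, by 1.90. All of these calls held without any 1 of the 4 arrays, and the count of higher pan-leukocyte genes stayed between 37 and 39. The 6 leukocyte markers were all higher, and their summed level (the log2 of their added linear signals) was 7.92 and 7.39 in yolk sac cells and 5.24 and 5.08 in embryo cells, against 1.46 and 1.35 in control yolk sac cells and 1.87 and 1.91 in control embryo cells. Coro1a, Vav1 and Rac2 made up most of this sum in Tie-2-Etv2 cells. Cd53 was well above background on 1 Tie-2-Etv2 yolk sac array and 0 embryo arrays, and Ptprc on 0 embryo arrays. The part of leukocytes or their precursors in these leukocyte gene differences was not tested.

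**Figure D2:**
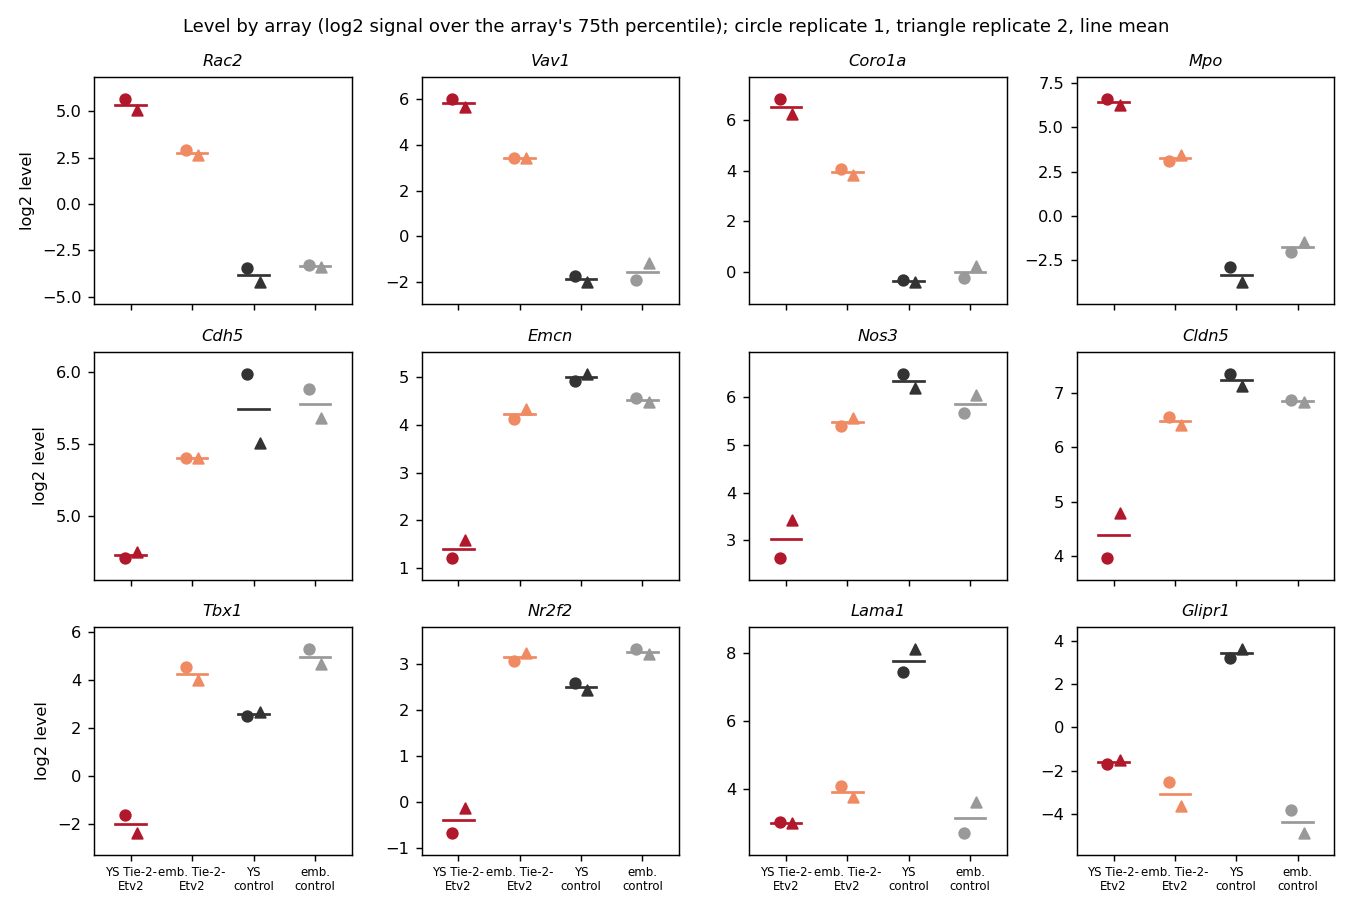
Log2 levels (signal over the array's 75th percentile) of 12 genes on the 8 CD45- arrays, with yolk sac (YS) and embryo (emb.) groups of each genotype, circles for replicate 1, triangles for replicate 2 and lines at the means. Rac2, Vav1, Coro1a and Mpo are highest on the 2 Tie-2-Etv2 yolk sac arrays, where Emcn, Nos3, Cldn5, Tbx1 and Nr2f2 are lowest.

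Megakaryocyte and platelet genes moved the same way. Of 38 tested genes 27 were higher and 0 lower, with a median difference of 2.10, while 6 were higher and 4 lower in control cells with a median of -0.06. Rgs18, a regulator of G-protein signalling in platelets, had levels of 3.35 and 3.10 in Tie-2-Etv2 yolk sac cells and 0.58 and 0.58 in Tie-2-Etv2 embryo cells (difference 2.65 ± 0.25, adjusted p = 0.000125). Itga2b, the platelet integrin subunit that also marks the first blood progenitors, had 6.69 and 6.20 in yolk sac cells and 4.22 and 4.07 in embryo cells (difference 2.30, adjusted p = 0.00545). The yolk sac arrays were above the embryo arrays for both genes, with no overlap. Bin2, a membrane-bending protein of blood cells, differed by 2.51, coagulation factor V (F5) by 2.43 and Pf4, a platelet chemokine, by 1.39. The call for Pf4 was lost without yolk sac replicate 1 (adjusted p = 0.0684) and without embryo replicate 2 (adjusted p = 0.0825), and Gp9, part of the platelet receptor for von Willebrand factor, which differed by 2.26, behaved alike (adjusted p = 0.0691 and 0.0607). Without single arrays the count of higher genes was 16 (yolk sac replicate 1), 18 (embryo replicate 2), 21 (embryo replicate 1) and 25 (yolk sac replicate 2). The megakaryocyte markers had a summed level of 9.60 and 9.29 in yolk sac cells and 8.18 and 7.60 in embryo cells, with 4 of 5 higher. Most of this sum was Pf4, at 9.16 and 8.95 in yolk sac cells and 7.98 and 7.36 in embryo cells. Pf4 also had means of 9.08 (yolk sac) and 8.28 (embryo) in control CD45-positive cells, where Itga2b had -1.92 and -1.53. The sum is therefore not a level shared by the 5 markers.

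Among 36 tested regulators of early blood and endothelium, 16 were higher and 4 lower, with a median of 0.69. The shares over all genes were 18.1% and 12.5%. The higher ones included Spi1, the ETS factor PU.1 of myeloid cells, which had levels of -0.28 and -0.34 in yolk sac cells and -4.23 and -3.03 in embryo cells (difference 3.32 ± 0.36, adjusted p = 0.000216). Myb, needed for definitive blood progenitors, had 2.13 and 2.39 in yolk sac cells and -0.36 and -0.34 in embryo cells (difference 2.61, adjusted p = 0.0013). Gfi1b, a repressor of erythroid and megakaryocyte cells, had 4.69 and 4.53 in yolk sac cells and 2.16 and 2.09 in embryo cells (difference 2.48, adjusted p = 0.00163). For these 3 transcription factors the yolk sac arrays were the higher ones without overlap, and no single array decided the call. Gata1, the master factor of red cells and megakaryocytes, differed by 2.15 (adjusted p = 0.00577; 0.0506 without yolk sac replicate 1), and Nfe2, a factor of platelet formation, by 2.25 (adjusted p = 0.00437). Runx1, which drives blood emergence from endothelium, had 3.62 and 3.14 in yolk sac cells and 1.20 and 0.87 in embryo cells (difference 2.35 ± 0.67, adjusted p = 0.0239), and its call was lost without any 1 of the 4 arrays (adjusted p = 0.0549 to 0.131). The receptor Kdr, which Etv2 activates and which marks endothelial precursors, did not pass (adjusted p = 0.119). Its tested probe was at 3.92 and 3.55 in yolk sac cells and 4.29 and 4.36 in embryo cells. A second Kdr probe was brighter on these arrays, with 5.31 and 5.62 in yolk sac cells and 6.43 and 6.53 in embryo cells. It differed by -1.01 without overlap and was not tested by itself. Prom1, a membrane protein of progenitor and epithelial cells, was lower in the yolk sac, with -0.49 and -0.82 there and 2.96 and 2.99 in embryo cells (difference -3.63 ± 0.57, adjusted p = 0.00136). The count of higher regulators fell to 9 without yolk sac replicate 1 and to 10 without either embryo array.

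Receptors for blood cytokines were mixed, with 14 of 30 higher, 4 lower and a median of 0.60, beside 18.1% higher and 12.5% lower over all genes. Il1rl1, the interleukin-33 receptor of mast cells, had levels of 2.81 and 2.50 in yolk sac cells and -0.84 and -0.36 in embryo cells (difference 3.26 ± 0.32, adjusted p = 0.000141). The yolk sac arrays were the higher ones, with no overlap. Il6ra, Il21r and Il10ra, receptor chains for interleukins, differed by 2.98, 2.89 and 2.75, and Epor, the erythropoietin receptor, by 1.54 (adjusted p = 0.00365). None of these 5 calls was lost without a single array.

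Genes of mature myeloid cells were mixed. Beside 18.1% higher and 12.5% lower over all genes, 12 of 40 macrophage genes were higher and 3 lower, with a median of 0.48. Of 30 granulocyte and mast cell genes 8 were higher and 2 lower, with a median of 0.12. The second median was -0.14 under detected-probe scaling, and under normexp both medians were -0.06. Without single arrays 4 to 6 granulocyte and mast cell genes were higher, the fewest without yolk sac replicate 1 or embryo replicate 2. Mpo, the peroxidase of early granulocyte precursors, is read at chr11:87617840-87617899 (mm9) and had levels of 6.59 and 6.28 in yolk sac cells and 3.08 and 3.45 in embryo cells, a difference of 3.17 ± 0.53 (adjusted p = 0.00197). In control cells it stood at -2.86 and -3.74 in the yolk sac and -2.02 and -1.45 in the embryo, far below both Tie-2-Etv2 groups. Lyz2, lysozyme, had 2.98 and 2.76 in yolk sac cells and -0.46 and -0.23 in embryo cells (difference 3.22, adjusted p = 0.000101), and it was not well above background on any of the 4 control arrays. Fcgr3, an antibody receptor, differed by 2.95 and Alox5ap, which serves leukotriene synthesis, by 2.69. The defining macrophage markers were split. C1qa and C1qc, complement subunits of tissue macrophages, were not well above background on any of the 4 Tie-2-Etv2 arrays, whereas their partner C1qb was on all 4 (difference 0.48, adjusted p = 0.431) and Adgre1, the F4/80 antigen, was on 3 of the 4 (difference 0.24, adjusted p = 0.525). Cx3cr1, the fractalkine receptor, had -3.22 and -2.52 in yolk sac cells, was not well above background in embryo cells and was at least 4.58-fold higher (adjusted p = 0.00446). The basophil protease gene Mcpt8 was not well above background on any of the 4 arrays. Elane, neutrophil elastase, was at 0.22 and -0.36 in yolk sac cells and 0.20 and 0.15 in embryo cells and did not pass (adjusted p = 0.595). Csf1r, the macrophage growth factor receptor, had probes of opposite sign, at 0.87 and -0.38, and is not given a direction.

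Red cell genes, including the globins, showed little difference by tissue in this test. Of 44 tested genes 12 were higher and 1 lower with a median of 0.23, beside 18.1% higher and 12.5% lower over all genes. The red cell median became -0.03 under detected-probe scaling. In control cells 9 were higher and 2 lower with a median of 0.92. Hbb-bh1, an embryonic beta-like globin, had levels of 6.90 and 7.80 in yolk sac cells and 7.27 and 8.60 in embryo cells, which overlapped (adjusted p = 0.641). Hba-a1, adult alpha globin, was at 6.33 and 6.90 in yolk sac cells and 6.67 and 7.89 in embryo cells (adjusted p = 0.452). Of the 7 erythroid markers 0 passed, and their summed level was 9.31 and 9.94 in yolk sac cells and 9.62 and 10.49 in embryo cells. The 12 higher genes included Car2, a carbonic anhydrase, with 5.90 and 5.62 in yolk sac cells and 3.47 and 3.87 in embryo cells (difference 2.09, adjusted p = 0.00102). Of 25 lymphoid genes 3 were higher and 8 lower, with a median of -0.07, beside the same shares of 18.1% and 12.5% over all genes. The lower ones included Thy1, with -0.78 and -0.20 in yolk sac cells and 2.83 and 2.55 in embryo cells (difference -3.18, adjusted p = 0.0008), Ebf1 (difference -2.92) and Gata3 (difference -2.84), genes that fibroblasts or neural tissue also express. Thy1 was lower in control yolk sac cells too (difference -3.30, adjusted p = 0.00174). Without yolk sac replicate 1 the higher red cell genes numbered 4, without embryo replicate 1 they numbered 7.

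Endothelial genes went the other way. Of 42 tested pan-endothelial genes 2 were higher and 17 lower in Tie-2-Etv2 yolk sac cells, with a median difference of -0.83. Over all genes 18.1% were higher and 12.5% lower. In control cells 5 of the 42 were higher and 0 lower, with a median of 0.16. Without single arrays the count of lower genes stayed between 14 and 18. Emcn had levels of 1.22 and 1.58 in Tie-2-Etv2 yolk sac cells and 4.11 and 4.34 in Tie-2-Etv2 embryo cells, a difference of -2.83 ± 0.25 (adjusted p = 9.92e-05). Control yolk sac cells stood at 4.93 and 5.06 and control embryo cells at 4.56 and 4.48, so the Tie-2-Etv2 yolk sac arrays were the only low ones of the 8. Nos3, endothelial nitric oxide synthase, had 2.64 and 3.42 in yolk sac cells and 5.38 and 5.55 in embryo cells (difference -2.44 ± 0.31, adjusted p = 0.00043). Cldn5, the claudin of endothelial tight junctions, had 3.96 and 4.78 in yolk sac cells and 6.57 and 6.42 in embryo cells (difference -2.12 ± 0.32, adjusted p = 0.00108). For both genes the yolk sac arrays lay below the embryo arrays with no overlap, and all 4 control arrays lay above the Tie-2-Etv2 embryo arrays. Pecam1, the adhesion molecule CD31, differed by -1.16 (adjusted p = 0.0043), She, an adaptor protein, by -2.24, and the transcription factors Sox7 and Ets1 by -3.03 and -2.38. None of these calls was lost without a single array.

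The loss did not cover all endothelial genes. Besides Cdh5 and the tested Kdr probe, the receptor genes Tek and Tie1 did not pass. Tek was at 3.61 and 3.46 in yolk sac cells and 3.18 and 3.66 in embryo cells (difference 0.12 ± 0.31, adjusted p = 0.816). Tie1 was at 4.81 and 4.80 in yolk sac cells and 4.61 and 4.83 in embryo cells (difference 0.08 ± 0.35, adjusted p = 0.885). Esam, a junction protein, was at 4.91 and 5.12 in yolk sac cells and 5.35 and 5.61 in embryo cells (adjusted p = 0.347). In Tek and Tie1 the arrays of the tissues overlapped, and in Esam they did not. The 8 tested endothelial markers had a summed level of 7.05 and 7.19 in yolk sac cells and 8.00 and 8.06 in embryo cells, against 8.67 and 8.48 in control yolk sac cells and 8.36 and 8.29 in control embryo cells. Of these 8 markers 3 were lower, namely Pecam1, Emcn and Cldn5.

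Arterial genes followed the same direction, with 13 of 24 lower, 2 higher and a median of -1.33, while in control cells 5 were higher and 0 lower with a median of 0.73. Efnb2, the arterial ephrin ligand, had levels of 1.40 and 2.20 in yolk sac cells and 4.04 and 3.43 in embryo cells (difference -1.94 ± 0.34, adjusted p = 0.00259). Sox17, a factor of arterial endothelium, had 1.22 and 2.33 in yolk sac cells and 4.28 and 3.69 in embryo cells (difference -2.22, adjusted p = 0.00239). Yolk sac replicate 1 was the lower of its pair in both genes, yet both replicates lay below the embryo arrays. Hey1, a Notch target, differed by -2.66 (adjusted p = 0.0105), but not without embryo replicate 1 (-1.83, adjusted p = 0.0885) or yolk sac replicate 1 (-2.22, adjusted p = 0.0863), nor in a fit of these 4 arrays alone (adjusted p = 0.0545), and Jag1, a Notch ligand, by -2.35 (adjusted p = 0.00702; 0.0607 without yolk sac replicate 1). The count of lower arterial genes was 5 without yolk sac replicate 1, 7 without embryo replicate 1, 8 without embryo replicate 2 and 14 without yolk sac replicate 2. In the Notch pathway as a whole, 3 of 22 genes were higher and 7 lower, with a median of -0.39, and 1 was lower without yolk sac replicate 1 and 4 without either embryo array. Over all genes the shares were 18.1% higher and 12.5% lower. Notch3, the receptor of mural cells, had -2.42 and -2.45 in yolk sac cells and 1.47 and 1.40 in embryo cells (difference -3.87 ± 0.53, adjusted p = 0.000655).

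Of 17 venous and lymphatic genes 9 were lower in the yolk sac and 1 was higher, with a median of -1.47. Nr2f2, the COUP-TFII factor of veins, had levels of -0.66 and -0.12 in yolk sac cells and 3.05 and 3.23 in embryo cells (difference -3.53 ± 0.36, adjusted p = 0.000175), and the yolk sac arrays were low without overlap. Foxc2, a factor of lymphatic valves, had -1.40 and -1.21 in yolk sac cells and 3.20 and 2.71 in embryo cells (difference -4.26, adjusted p = 0.00217). Prox1, which specifies lymphatic endothelium, was not well above background in Tie-2-Etv2 yolk sac cells (-5.18 and -5.03) and had -0.45 and -0.57 in embryo cells, at least 21.6-fold lower (adjusted p = 0.000161). Prox1 was also lower in control yolk sac cells (difference -3.80, adjusted p = 0.000919). Gm1987 had the largest difference of the 281 genes described or examined by name. This gene belongs to the near-identical copies of the lymphatic chemokine gene Ccl21, which one probe cannot separate, and its probe lies at chr4:42232117-42232176 (mm9). It was not well above background in Tie-2-Etv2 yolk sac cells and had levels of 5.20 and 4.22 in embryo cells, at least 879-fold lower (adjusted p = 1.86e-05), and it was lower in control yolk sac cells as well (difference -8.51, adjusted p = 3.88e-05). Of 23 brain barrier endothelial genes 11 were lower and 0 higher, with a median of -1.24, beside 7 lower and 0 higher in control cells. The share lower over all genes was 12.5% in Tie-2-Etv2 cells and 6.1% in control cells. Lef1, a factor of Wnt signalling that the barrier depends on, had -4.03 and -3.04 in yolk sac cells and 2.71 and 2.87 in embryo cells (difference -6.32 ± 0.65, adjusted p = 0.000173).

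Genes of the vascular basement membrane, the sheet of laminin, collagen and nidogen beneath endothelium, were lower as a group. Of 20 tested genes 15 were lower and 0 higher, with a median of -1.49, while in control cells 5 were higher and 0 lower with a median of 0.62. Lamb1, a laminin beta chain read at chr12:32014411-32014470 (mm9), had levels of 3.60 and 4.06 in yolk sac cells and 6.10 and 6.05 in embryo cells (difference -2.25 ± 0.43, adjusted p = 0.00389). Control yolk sac cells had 7.22 and 7.62 and control embryo cells 6.42 and 6.36, so the order of the tissues in control cells was the opposite one for these arrays, although the control difference of 1.03 did not pass (adjusted p = 0.154). Nid1, which links laminin to collagen, had 2.69 and 3.61 in yolk sac cells and 5.30 and 5.45 in embryo cells (difference -2.23, adjusted p = 0.00135). Lama4, the endothelial laminin alpha chain, differed by -2.86, Agrn, a heparan sulphate proteoglycan, by -2.54, and Serpinh1, the collagen chaperone, by -2.26. These calls held without any 1 array, but the count of lower genes was 9 without yolk sac replicate 1 and 11 without either embryo array.

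Genes of position and of embryonic tissues outside the vessels were lower in the yolk sac. Of 35 tested Hox genes, which mark positions along the body axis, 24 were lower and 0 higher, with a median of -2.49. In control cells 4 were lower and 1 higher, with a median of -0.05. Over all genes 12.5% were lower in Tie-2-Etv2 cells and 6.1% in control cells. Hoxa3, read at chr6:52119087-52119146 (mm9), had levels of -2.17 and -2.26 in Tie-2-Etv2 yolk sac cells and 1.94 and 1.84 in Tie-2-Etv2 embryo cells (difference -4.11 ± 0.40, adjusted p = 0.000141). Control cells had 1.30 and 1.39 in the yolk sac and 3.11 and 2.37 in the embryo, so only the Tie-2-Etv2 yolk sac arrays were below 0. Hoxa2 had -5.16 and -4.26 in yolk sac cells and -0.48 and -0.80 in embryo cells (difference -4.07, adjusted p = 0.000566), and was well above background on 1 of the 2 yolk sac arrays. The yolk sac arrays were the lower ones for both genes, with no overlap. Hoxd13 and Hoxd9 were not well above background in yolk sac cells and were at least 6.38-fold (adjusted p = 0.00132) and at least 15.6-fold lower (adjusted p = 0.000552). Lower calls came from all 4 clusters, with 9 of 11 Hoxa, 3 of 9 Hoxb, 4 of 7 Hoxc and 8 of 8 Hoxd genes, and Hoxc12 was the only one of the 35 above 0 (0.16, adjusted p = 0.762). Leaving out yolk sac replicate 1 left 15 lower Hox genes, and leaving out another array left 18 to 21.

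Of 47 transcription factors of position other than Hox genes, 26 were lower and 4 higher, with a median of -2.05, beside 15 lower and 5 higher in control cells. Tbx1, a T-box factor of the pharyngeal arches, is read at chr16:18581807-18581866 (mm9) and had levels of -1.61 and -2.35 in Tie-2-Etv2 yolk sac cells and 4.54 and 4.03 in Tie-2-Etv2 embryo cells, a difference of -6.26 ± 0.52 (adjusted p = 7.06e-05). Control cells had 2.52 and 2.69 in the yolk sac and 5.29 and 4.66 in the embryo, and the Tie-2-Etv2 yolk sac arrays were the only ones below 0. Zic1, a factor of dorsal neural tissue and somites, was lower on both of its probes, which differed in size. Its brightest probe was not well above background in yolk sac cells and had 2.95 and 1.26 in embryo cells (adjusted p = 7.32e-05). The other was well above background on all 4 arrays, lower on both yolk sac arrays (-3.02 and -3.61) than on both embryo arrays, with a difference of -1.74 that also passed where only such probes were tested. Foxf2, of mesenchyme and brain pericytes, was at least 52.5-fold lower (adjusted p = 7.27e-05) and Six2, of mesenchymal progenitors, at least 39.9-fold lower (adjusted p = 0.000216), and neither was well above background in yolk sac cells.

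Of 29 neural genes 22 were lower and 0 higher, with a median of -3.42, beside 13 lower and 0 higher in control cells. Fabp7, the fatty acid carrier of radial glia, was not well above background in Tie-2-Etv2 yolk sac cells (-6.89 and -6.88) and had 1.69 and 0.72 in embryo cells, at least 77.5-fold lower (adjusted p = 2.3e-05). Tubb3, neuronal tubulin, had -3.18 and -4.42 in yolk sac cells and 1.52 and 1.34 in embryo cells (difference -5.23 ± 0.71, adjusted p = 0.000629). All 4 neural markers were lower, and their summed level was 0.46 and 0.52 in yolk sac cells and 3.15 and 3.06 in embryo cells. In control cells that level was 3.90 and 3.96 in the yolk sac and 2.49 and 3.37 in the embryo. Of the 4 markers, Tubb3, Elavl3 and Sox2 were lower in control yolk sac cells too. Stmn2 had 3.89 and 3.95 there and 2.21 and 2.38 in control embryo cells, and did not pass (difference 1.63, adjusted p = 0.0576). Of 36 mesenchymal and mural genes 19 were lower and 0 higher, with a median of -1.67, while in control cells 4 were higher and 4 lower. The 19 became 12 without yolk sac replicate 1 or embryo replicate 1, and the median -1.18 without the second of these. Pdgfrb, the pericyte growth factor receptor, had -3.16 and -2.98 in yolk sac cells and 0.65 and -1.05 in embryo cells (difference -2.87, adjusted p = 0.00203), and Fbn1, a microfibril protein, had -0.95 and -1.11 in yolk sac cells and 2.09 and 2.12 in embryo cells (difference -3.14, adjusted p = 0.00305). The yolk sac arrays were the lower ones in both. Pdgfrb was lower in control yolk sac cells too (difference -2.33, adjusted p = 0.014), with a departure from control of -0.54 that did not pass (adjusted p = 0.64). Col1a1, the fibrillar collagen chain, had 3.92 and 3.53 in yolk sac cells and 3.41 and 1.94 in embryo cells and did not pass (adjusted p = 0.205), and the summed level of the 5 mural markers overlapped between tissues, at 4.57 and 4.26 in yolk sac cells and 5.02 and 3.59 in embryo cells. Of 22 cardiac and skeletal muscle genes 11 were lower and 2 higher, with a median of -1.44, and without single arrays 3 to 7 were lower, the fewest without embryo replicate 2. The part of non-endothelial cells in these lower values was not tested.

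Normexp, a background correction that lifts dim signals, shortened many of the differences above. Of the 221 genes examined by name that passed the test, 99 had a normexp difference less than 1 part in 1.5 of the main one, among them all 55 whose brightest probe was not well above background in 1 group, and 18 no longer passed. Under this correction Fabp7 differed by -3.60, Zic1 by -4.56, Gm1987 by -7.14, Hoxd13 by -1.17 and Spi1 by 1.76, and each of these passed.

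Genes of the yolk sac endoderm were higher, and here the 2 yolk sac replicates parted. Of 43 tested genes 20 were higher and 5 lower, with a median of 2.07, beside 18.1% higher and 12.5% lower over all genes. In control cells 23 were higher and 1 lower, with a median of 3.01, beside 5.45% higher and 6.1% lower over all genes. Afp, the fetal serum protein alpha-fetoprotein, is read at chr5:90937781-90937840 (mm9) and had levels of 5.93 and 8.58 in Tie-2-Etv2 yolk sac cells and 4.52 and 3.92 in Tie-2-Etv2 embryo cells, a difference of 3.03 ± 0.85 (adjusted p = 0.0218). Ttr, the thyroid hormone carrier, had 1.35 and 4.64 in yolk sac cells and -0.31 and -0.78 in embryo cells, a difference of 3.54 ± 1.05 (adjusted p = 0.0276). Cubn, the endocytic receptor cubilin, had 0.26 and 4.02 in yolk sac cells and -2.27 and -2.29 in embryo cells, a difference of 4.42 ± 1.09 (adjusted p = 0.0126). In each case yolk sac replicate 2 stood near the control yolk sac arrays and replicate 1 stood between them and the embryo arrays, as the plot of endoderm markers shows. The summed level of the 6 endoderm markers was 6.06 and 8.78 in Tie-2-Etv2 yolk sac cells and 4.60 and 4.01 in Tie-2-Etv2 embryo cells, against 9.01 and 8.89 in control yolk sac cells and 5.94 and 4.71 in control embryo cells. All 6 markers passed on all 4 arrays, and none did without yolk sac replicate 2, without embryo replicate 2 or in a fit of these 4 arrays alone. Afp, Ttr, Amn and Cubn also lost their calls without embryo replicate 1, where they differed by 3.33, 3.78, 5.13 and 4.43. Without yolk sac replicate 2 Afp differed by 1.71 (adjusted p = 0.15), Ttr by 1.90 (adjusted p = 0.191) and Cubn by 2.54 (adjusted p = 0.0717), and without embryo replicate 2 their adjusted p-values were 0.114, 0.123 and 0.0605. The list had 9 higher and 7 lower genes without yolk sac replicate 2 (median 0.88), 25 higher and 3 lower without yolk sac replicate 1 (median 3.42), and 11 and 8 higher genes without embryo replicate 1 and replicate 2. The gate selected VE-cadherin, and what part endoderm cells or their RNA had in these samples was not tested.

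**Figure D3:**
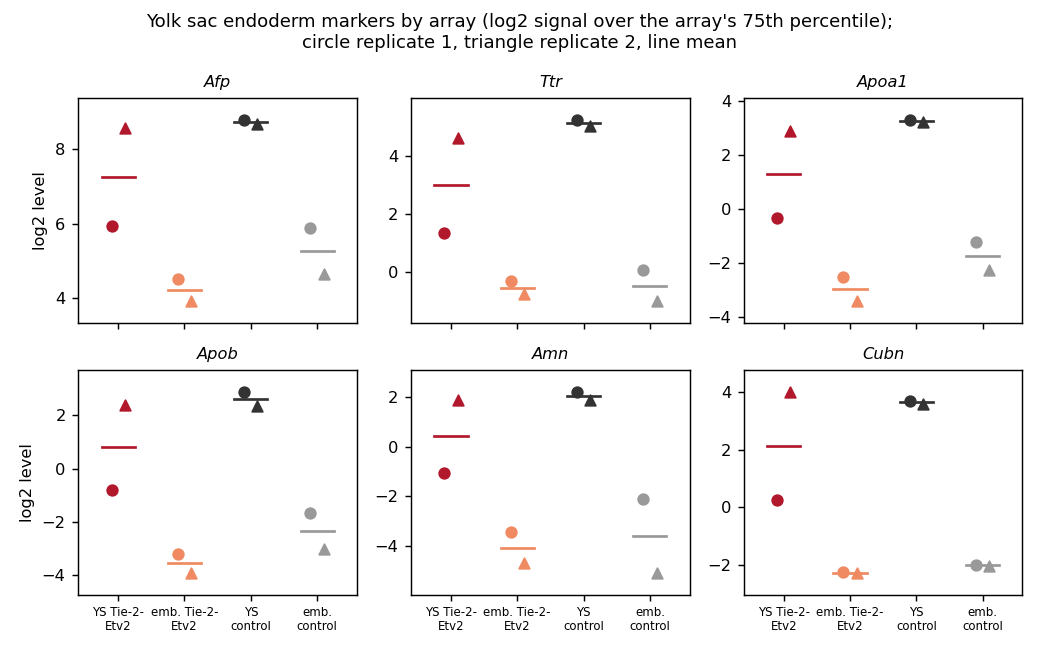
Log2 levels (signal over the array's 75th percentile) of 6 markers of yolk sac endoderm on the 8 CD45- arrays, with circles for replicate 1, triangles for replicate 2 and lines at the means. In Tie-2-Etv2 yolk sac cells (YS) replicate 2 is at or near the control yolk sac level and replicate 1 is lower, as for Afp at 5.93 and 8.58.

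S100g, the calcium carrier calbindin-D9k, had the largest higher difference of the genes examined, with levels of 0.92 and 4.36 in yolk sac cells and -4.40 and -5.01 in embryo cells (difference 7.34 ± 1.04, adjusted p = 0.000793). Apoa4, a lipoprotein component, was not well above background in embryo cells and was at least 30.9-fold higher (adjusted p = 0.00102). Lgals2, a galectin, was at least 81.0-fold higher (adjusted p = 0.00167). In S100g, Apoa4 and Lgals2 yolk sac replicate 2 was again above replicate 1. Scimp, an adaptor of immune cells, was not well above background in Tie-2-Etv2 embryo cells or in either control group, had -1.49 and -0.80 in Tie-2-Etv2 yolk sac cells, and was at least 15.1-fold higher there than in Tie-2-Etv2 embryo cells (adjusted p = 0.000223). Of 17 liver genes 2 were higher and 3 lower, beside 18.1% higher and 12.5% lower over all genes. Their median of 0.57 became -0.21 without yolk sac replicate 2. Of 27 epithelial genes 4 were higher and 0 lower, with a median of 0.58, beside 13 higher and 0 lower in control cells with a median of 2.96. Without yolk sac replicate 1 the higher epithelial genes numbered 6, and without any other array 1. The 4 epithelial markers had a summed level of 4.11 and 5.41 in yolk sac cells and 3.11 and 2.45 in embryo cells, and 0 of the 4 passed.

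Where the tissue difference of Tie-2-Etv2 cells departed from that of control cells was tested in the same fit. It was higher than in control cells for 2375 genes (9.66%) and lower for 1574 (6.4%), with a median of 0.22 over all genes. Detected-probe scaling gave 1031 higher and 2221 lower, so that 31.7% were higher. This contrast holds the same Tie-2-Etv2 arrays as the tissue comparison above and is no independent repeat of it. Blood genes lay in the first direction: 34 of 44 pan-leukocyte genes and 12 of 38 megakaryocyte genes were higher than in control cells and 0 of either lower, with medians of 2.12 and 1.78. Vessel genes lay in the other: 18 of 42 pan-endothelial, 14 of 24 arterial and 16 of 20 basement membrane genes were lower than in control cells and 0 of each higher, with medians of -1.57, -2.14 and -2.54. Of the Hox genes 11 were lower and 0 higher, with a median of -2.20. Of 43 yolk sac endoderm genes 4 were lower than in control cells and 0 higher (median -0.97), and of 29 neural genes 7 were lower and 0 higher (median -0.78). Mesenchymal and mural genes had 10 of 36 lower and 0 higher, positional factors 10 of 47 lower and 0 higher.

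**Figure D4:**
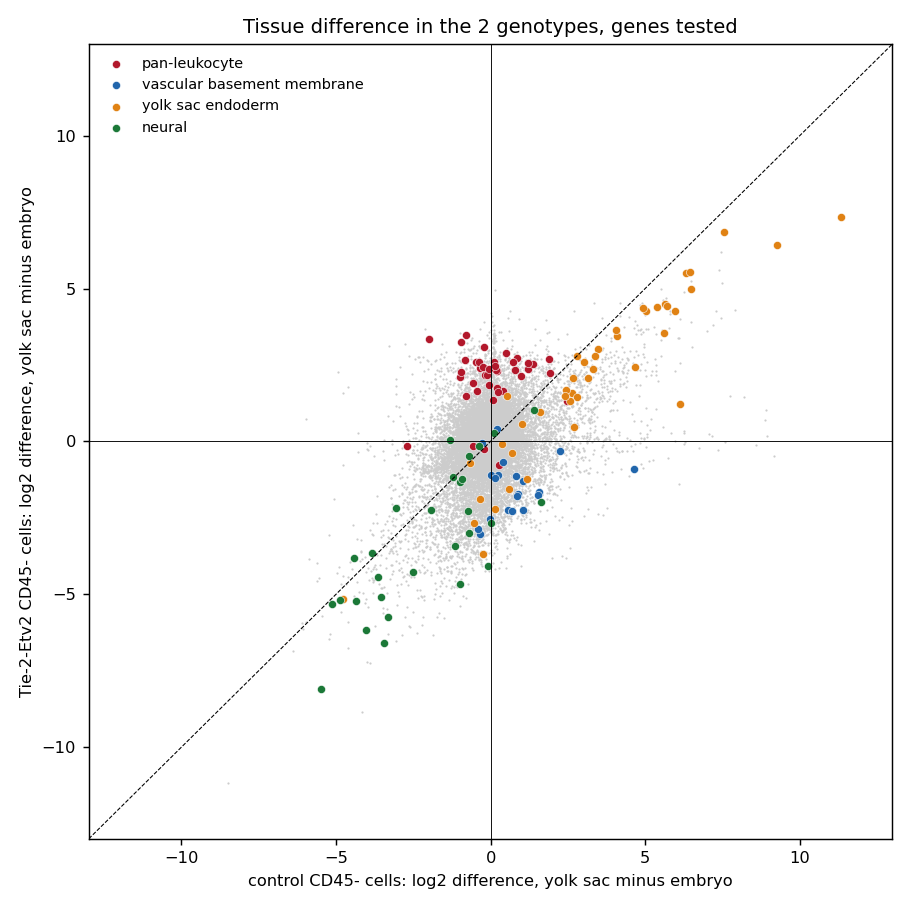
Each grey point is 1 of 24588 genes tested, with its log2 difference, yolk sac minus embryo, in control CD45- cells on the horizontal axis and in Tie-2-Etv2 CD45- cells on the vertical axis, and a dashed line where both are equal. Pan-leukocyte genes lie above the line near 0 on the control axis (median 2.32 against -0.04), basement membrane genes lie below it (-1.49 against 0.62), and yolk sac endoderm genes are mostly positive on both axes (2.07 against 3.01).

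For Rac2 the tissue difference exceeded that of control cells by 3.08 (adjusted p = 0.00136), for Mpo by 4.73 (adjusted p = 0.00438) and for Myb by 4.42 (adjusted p = 0.00174). For Emcn the departure from control was -3.30 (adjusted p = 0.000947), for Lamb1 it was -3.28 (adjusted p = 0.00796) and for Tbx1 it was -3.89 (adjusted p = 0.00829). The departures in the higher direction included Mndal, an interferon-inducible DNA-binding protein, with levels of 1.09 and 0.32 in Tie-2-Etv2 yolk sac cells and -2.21 and -2.63 in Tie-2-Etv2 embryo cells. In control cells Mndal was not well above background in the yolk sac and had -3.10 and -3.03 in the embryo, so that the order of the tissues was reversed between genotypes (departure 6.40 ± 0.70, adjusted p = 0.000947). Slpi, a secreted inhibitor of leukocyte proteases, and Ccl3, a macrophage chemokine, showed the same pattern, with departures of 5.46 and 5.78, which were 2.64 and 2.62 under normexp. Several departures in the lower direction came from genes high in control yolk sac cells. Lama1, the laminin alpha chain of early embryonic basement membranes, is read at chr17:68171924-68171983 (mm9) and had levels of 3.01 and 2.97 in Tie-2-Etv2 yolk sac cells and 4.07 and 3.75 in Tie-2-Etv2 embryo cells, against 7.44 and 8.12 in control yolk sac cells and 2.70 and 3.60 in control embryo cells (departure -5.55 ± 0.73, adjusted p = 0.00183). Control yolk sac cells were the only high group for Lama1, and its tissue difference in Tie-2-Etv2 cells did not pass (-0.92, adjusted p = 0.214). Pnoc, the precursor of the neuropeptide nociceptin, had -3.50 and -3.94 in Tie-2-Etv2 yolk sac cells and -2.36 and -2.29 in Tie-2-Etv2 embryo cells, against 5.23 and 4.72 in control yolk sac cells and -0.83 and -1.42 in control embryo cells (departure -7.50, adjusted p = 0.00401). Gsta2, a glutathione transferase, and Krt23, a keratin, were likewise high in control yolk sac cells alone, with departures of -6.74 and -5.80. For Pnoc, Gsta2 and Krt23 too the tissue difference in Tie-2-Etv2 cells did not pass (adjusted p = 0.234, 0.184 and 0.306).

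Of 24 ETS-family genes, the family of the transgene, 3 were higher and 6 lower, with a median of -0.17. The shares over all genes were 18.1% higher and 12.5% lower. Besides Spi1, Elf1 was higher, with levels of 4.53 and 4.41 in yolk sac cells and 2.54 and 2.32 in embryo cells (difference 2.04 ± 0.28, adjusted p = 0.000692). Etv4, a factor downstream of FGF signals, had -1.38 and -1.88 in yolk sac cells and 2.33 and 1.77 in embryo cells (difference -3.68 ± 0.22, adjusted p = 2.14e-05), and its relative Etv5 differed by -2.20 (adjusted p = 0.00248). The yolk sac and embryo arrays did not overlap for any of these 3.

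Antigen presentation and interferon genes were higher in part, beside 18.1% higher and 12.5% lower over all genes. In control cells these shares were 5.45% and 6.1%. Of 15 tested MHC genes 9 were higher and 0 lower, with a median of 1.48, beside 4 higher and 0 lower in control cells. H2-Ab1, a class II chain, had levels of 3.48 and 2.44 in yolk sac cells and 0.80 and 0.25 in embryo cells (difference 2.44 ± 0.42, adjusted p = 0.0023), and Tap2, a peptide transporter, had 2.84 and 2.89 in yolk sac cells and 1.03 and 1.28 in embryo cells (difference 1.71, adjusted p = 0.00021). The yolk sac arrays were the higher ones for both. Without single arrays 4 to 6 MHC genes were higher, the fewest without embryo replicate 1. Among 31 genes induced by interferon, 8 were higher and 0 lower with a median of 1.05, while in control cells 16 were higher and 0 lower with a median of 2.13. Oas1a, an antiviral RNA sensor, had 2.76 and 2.43 in Tie-2-Etv2 yolk sac cells and 0.09 and -0.05 in Tie-2-Etv2 embryo cells (difference 2.58, adjusted p = 0.000557), beside 1.87 and 2.43 in control yolk sac cells and -2.09 and -1.64 in control embryo cells.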

How the data were processed

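Per the labels' protocols, RNA of sorted cells was purified with a Qiagen microelute kit, labelled with Cy3 by Agilent's Low Input Quick Amp method and hybridised to one-colour Agilent arrays. The deposited intensity per spot is the processed signal, background-subtracted by Feature Extraction 10.7 per the file headers, with no scaling between arrays. Control spots and outlier flags were left out, spots of 1 probe averaged, and log2 values centred on each array's 75th percentile. Probes well above background on all arrays of at least 1 group were kept (34126 of 55681), and the brightest probe stood for a gene. Of the probes, 25985 had no gene name. limma 3.58.1 in R 4.3.3 fitted 8 groups (8 residual degrees of freedom), and the fit was tested on simulated data. A bound ("at least") sets the brighter group's mean against the detection floor of the other, or its measured level on an array where that is higher. The floor is the lowest level well above background on an array. A bound holds for the main background correction only, since normexp differences of some such genes were smaller. The 9 alternatives included normexp (offset 50). The deposited value table was not used, since it is centred within tissue and gate. Python 3.11.15, pandas 2.3.3, numpy 2.4.6 and matplotlib 3.10.9 were used.

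The groups compared, the 30 gene lists (868 members, 819 tested) and the tests were chosen with earlier results of these data known. Named genes were, per direction, the 15 with the largest tissue difference and the 10 with the largest departure from control. Both sets held only genes with a symbol that passed that test and whose Tie-2-Etv2 tissues did not overlap. The 15 were also well above background on both arrays of the higher group, the 10 on both arrays of at least 1 group. For these genes the passed test and the lack of overlap were conditions of the choice. Also named were up to 6 per list by size, the lists' defining markers, all Hox genes and 12 fixed genes (Etv2, Cdh5, Ptprc, Tek, Kdr, Pecam1, Emcn, Runx1, Gata1, Spi1, Afp, Ttr). Of 281 such genes, 64 had several probes. Some results are not reported here.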

Additional observations from a re-analysis of the deposited data

Results flagged for a closer look

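These results stood out because the tissue difference of Tie-2-Etv2 cells departed from that of control cells, as a limma test of the difference between both contrasts. It was higher for 2375 genes and lower for 1574. Values below are log2 departures, and a positive value means that the yolk sac minus embryo difference was larger in Tie-2-Etv2 than in control cells.

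Among the genes with the largest upward departures, Robo3 stood at 7.20, Mndal at 6.40, Crisp3 at 6.36, Ccl3 at 5.78, Slpi at 5.46, Cxcl5 at 5.37, Cd52 at 5.33, Lax1 at 5.15, Ccl4 at 5.12 and Srgap3 at 5.09. In 9 of these 10 the control yolk sac arrays were not well above background, and Srgap3 was above it on 1 of them. In Tie-2-Etv2 cells the tissue difference itself did not pass for Robo3 (2.28, adjusted p = 0.065) or Cxcl5 (2.44, adjusted p = 0.0636). The call for Cxcl5 was lost without any 1 of 5 arrays (adjusted p = 0.0543 to 0.079). Ccl4 lost its call without embryo replicate 1 (4.27, adjusted p = 0.0655), yolk sac replicate 1 (5.29, adjusted p = 0.0544) or control yolk sac replicate 2 (3.81, adjusted p = 0.0513), and under normexp (1.54, adjusted p = 0.0697).

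Among the largest downward departures, Gm10639 stood at -7.88, Pnoc at -7.50, Gsta2 at -6.74, Glipr1 at -6.28, Serinc2 at -6.07, Chrna4 at -6.06, Myl7 at -5.94, Krt23 at -5.80, Foxq1 at -5.78 and Lama1 at -5.55. Control yolk sac cells had the highest mean of the 4 groups in each of these 10. In Tie-2-Etv2 cells the tissue difference did not pass for Gm10639, Pnoc, Gsta2, Myl7, Krt23 and Lama1 (adjusted p = 0.0527 to 0.306). It was positive for Gm10639 (1.02) and Gsta2 (1.46). Glipr1 was higher in Tie-2-Etv2 yolk sac cells (1.48, adjusted p = 0.0322), by 0.94 without embryo replicate 2. The call for Chrna4 was lost without any 1 of 7 arrays (adjusted p = 0.0663 to 0.108), under quantile normalization (adjusted p = 0.0554), with no filter on dim probes (adjusted p = 0.0569) and in a fit of the contrast's arrays alone (adjusted p = 0.0505), and its departure was -4.12 without control embryo replicate 1.

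Of the blood genes, Mpo stood at 4.73, Myb at 4.42, Rgs18 at 4.40, Evi2a at 4.30, Lyz2 at 3.15, Rac2 at 3.08, Coro1a at 2.96, Spi1 at 2.91, Vav1 at 2.75 and Pf4 at 2.53. Of the endothelial and basement membrane genes, Emcn stood at -3.30, Lamb1 at -3.28, Nos3 at -2.91, Nid1 at -2.78, Nr2f2 at -2.77, Cldn5 at -2.50 and Pecam1 at -1.41. Pecam1 lost its call without embryo replicate 2 (adjusted p = 0.0683), yolk sac replicate 1 (adjusted p = 0.0721) or control yolk sac replicate 2 (adjusted p = 0.0679). Of the positional factors, Tbx1 stood at -3.89, Hoxa7 at -3.35, Hoxa3 at -2.71 and Hoxa9 at -2.17. Of the remaining genes, Stmn2 stood at -3.62, Ccn2 at -3.55, Ndn at -2.61, Plagl1 at -2.58 and Acta2 at -2.47, and Acta2 lost its call without 6 of the 8 arrays (adjusted p = 0.0555 to 0.0817).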

How the results depend on the processing

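The counts of genes that passed depended on the arrays and on the scaling. Without 1 array at a time, 1747 to 3443 genes were higher and 1746 to 2425 lower in Tie-2-Etv2 yolk sac cells. For the departure from control the ranges were 769 to 2145 higher and 740 to 1548 lower, and for control cells 520 to 1167 higher and 356 to 1339 lower. Detected-probe scaling gave 2551 higher genes in Tie-2-Etv2 cells and 1031 for the departure from control. With no filter on dim probes the departure was higher for 1408 genes, and 969 were lower in control cells. A fit of the contrast's arrays alone gave 837 lower genes in control cells. The macrophage median became -0.0603 under normexp, and without single arrays the liver median ran from -0.21 to 1.08. The departure of Cd53 became -0.0063 under normexp and that of Zic1 0.15 under the strict filter. The cause of these changes was not tested. Of 221 named genes that passed in Tie-2-Etv2 cells, 144 passed without any 1 array and 77 did not, and 136 passed in every alternative. The labels do not say that a replicate number marks shared material, so the numbers were not taken to pair the samples. Deviations of same-numbered arrays correlated at -0.047 to 0.385 over 28 pairs of groups and at 0.0963 between the Tie-2-Etv2 tissues compared. Between the CD45-negative and CD45-positive gates they correlated at 0.385 in control embryo and 0.372 in Tie-2-Etv2 yolk sac. The gates had 0.222 in Tie-2-Etv2 embryo and 0.032 in control yolk sac. CD45-negative cells of control and Tie-2-Etv2 embryo had 0.267. Whether some numbers share material, also between gates, was not tested. With the replicate number as a block, 5251 genes were higher and 3357 lower between the Tie-2-Etv2 tissues, the departure was higher for 3420 and lower for 1803, and 1537 were higher and 1978 lower in control cells. The sizes of differences read by dim probes depended on the background correction. Normexp lifts dim signals and so shortens such differences by design. Its values therefore cannot tell which size is closer to the true one. Keeping only probes well above background on all arrays of the contrast, which tests fewer genes, left 13 of 21 Hox genes, 11 of 27 other positional factors, 10 of 15 neural genes and 6 of 17 brain barrier genes lower.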

Other observations

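Genes of DNA replication and division were higher in Tie-2-Etv2 yolk sac cells by small amounts. For this and the lists that follow, the shares over all genes were 18.1% higher and 12.5% lower, and 5.45% and 6.1% in control cells. Of 39 cell cycle genes 26 were higher and 1 lower, with a median difference of 0.67, beside 0 higher and 2 lower in control cells. Cdc45, a component of the active replication helicase, had log2 levels of 1.19 and 0.93 in yolk sac cells and -0.12 and 0.07 in embryo cells (difference 1.08, limma adjusted p = 0.00107). Mcm5, another helicase subunit, had 6.21 and 5.90 in yolk sac cells and 5.16 and 5.07 in embryo cells (difference 0.94, limma adjusted p = 0.0024). The count was 14 under detected-probe scaling, 10 under quantile normalization, 14 in a fit of these 4 arrays alone, and 7 to 15 without yolk sac replicate 1 or either embryo array. Of 30 hypoxia and glycolysis genes 16 were higher and 1 lower, with a median of 0.94, and 6 were higher without yolk sac replicate 1, 8 without embryo replicate 2 and 9 without embryo replicate 1. Hk2, which starts glycolysis, had 2.05 and 1.90 in yolk sac cells and 0.37 and 0.23 in embryo cells (difference 1.68, limma adjusted p = 0.00113) and differed by 1.63 in control cells too. Tpi1, a glycolytic isomerase, differed by 1.34 and Aldoc, an aldolase, by 2.16. Of 27 p53 and apoptosis genes 7 were higher and 2 lower, with a median of 0.47, and 3 were higher without yolk sac replicate 1 and 4 without either embryo array. Bid, a death-promoting protein, had 3.13 and 3.15 in yolk sac cells and 1.02 and 1.38 in embryo cells (difference 1.94, limma adjusted p = 0.000509), and Bcl2, a survival protein, had -0.87 and -0.54 in yolk sac cells and 1.77 and 1.22 in embryo cells (difference -2.20, limma adjusted p = 0.0033).

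Imprinted growth genes were lower more often than higher, with 10 of 24 lower, 2 higher and a median of -1.18, beside 1 lower and 2 higher in control cells. Without yolk sac replicate 1 the lower ones numbered 6. Plagl1, a zinc finger factor of this network, had 4.69 and 4.96 in Tie-2-Etv2 yolk sac cells and 7.35 and 7.35 in Tie-2-Etv2 embryo cells (difference -2.52, limma adjusted p = 0.000626), against 7.89 and 7.69 in control yolk sac cells and 7.78 and 7.68 in control embryo cells. Ndn, necdin, had -0.10 and -0.06 in yolk sac cells and 2.00 and 2.32 in embryo cells (difference -2.24, limma adjusted p = 0.000238). Ascl2, a factor of placental progenitors, went the other way, with 1.16 and 0.66 in yolk sac cells and -2.12 and -1.74 in embryo cells (difference 2.84, limma adjusted p = 0.000353). Of 29 immediate early and stress genes 7 were lower and 2 higher, with a median of -0.11, and 0 were lower without yolk sac replicate 1 or embryo replicate 1 and 2 in a fit of these 4 arrays alone. In control cells 6 of these 29 were higher and 0 lower.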
